A study of Mus musculus with 21 samples.

Results

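The expression of 10 genes linked to antigen-experienced T cells was described in T cells of the mouse spleen, sorted as CD4+ or CD8+. They are 4 members of the S100 family (S100a4, S100a6, S100a10 and S100a11) with Lgals1, Anxa2, Crip1, Vim, Ahnak and Cd44. They were taken by name from a table of 12994 genes, in which all 10 were found. The members were selected on results of these samples, among them the normalized counts of S100a6 and S100a10 in CD4+ T cells of the different environments, so that comparison is given below as a description, without a test. The comparison of CD4+ with CD8+ T cells and the comparison of environments in CD8+ T cells are not the ones that brought the members together. They were tested, save for S100a6 and S100a10 between populations. Earlier results of these data were known when the members were chosen, so these tests may not be fully independent of the choice.

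The samples came from female C57BL6/J mice that entered their housing at weaning, at 4 weeks of age, and spent 4 weeks either in an enriched environment (EE), large cages with running wheels, houses and toys that were renewed, or in a standard environment (SE) without objects. There were 6 EE and 5 SE samples of CD4+ T cells, and 6 EE and 4 SE samples of CD8+ T cells, in total 21 samples from 12 mice, of which 9 gave both populations. According to the labels the mice of each environment shared a cage, so cage and environment cannot be told apart, and each population of a mouse is 1 sample. Values are molecules counted per gene with unique molecular identifiers (UMIs, random tags that mark copies of the same cDNA), divided by the authors' size factor for the sample, and are called normalized counts. Totals ranged from 145546 to 221454 molecules per sample, 1 normalized count was worth about 1 molecule (size factors from 0.794 to 1.265), and counts of up to 3 molecules were treated as low. Cd4 had at least 42.7 normalized counts in each CD4+ sample and at most 0.966 in each CD8+ sample. Cd8a had at most 3.09 in each CD4+ sample and at least 72.5 in each CD8+ sample. Cd8b1 was detected in 11 of 11 CD4+ samples, at up to 9.15 normalized counts, against at least 177 in each CD8+ sample. These markers thus went with the labels, with some Cd8b1 RNA in every CD4+ sample. Samples of the CD4+ group carried more B-cell RNA, and 2 CD8+ samples (EE replicate 6 and SE replicate 3) carried globin RNA. Their values are given beside the results they touch.

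T cells that have met antigen differ from naive cells in adhesion, migration and membrane organization, and CD44, the receptor for hyaluronan, is the surface protein most used to tell them apart in mice. S100 proteins are small proteins that bind calcium with paired EF hands and pass the signal to partners such as annexins and the actin and myosin cytoskeleton, and many of their genes lie in a cluster. Transcripts of several of them, with those of galectin-1 and vimentin, are commonly more abundant in memory and effector T cells than in naive T cells. In bulk samples such as these, a lower value from fewer cells of a type and one from less RNA per cell cannot be told apart.

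All 4 S100 genes lie on the plus strand of chromosome 3 (GRCm38, GENCODE M21). S100a4 (chr3:90603771-90606045) and S100a6 (chr3:90612882-90624181) lie 6.8 kb apart with S100a5, not analysed here, between them, and S100a11 (chr3:93520488-93526287) and S100a10 (chr3:93555080-93564643) form a second pair 28.8 kb apart, with 2896.3 kb between the pairs. The remaining members lie elsewhere, Lgals1 on chromosome 15 (78926725 to 78930465), Anxa2 on chromosome 9 (69453620 to 69491795), Crip1 on chromosome 12 (113146316 to 113153879), Vim on chromosome 2 (13573927 to 13582826), Ahnak on chromosome 19 (8989284 to 9076914), all on the plus strand, and Cd44 on the minus strand of chromosome 2 (102811141 to 102901665). RefSeq promoter windows (GRCm38.p6, 250 bases before to 50 bases after the start of the gene) were matched for 8 of the 10 members, all but S100a10 and Lgals1. Those of S100a4, S100a6, S100a11 and Anxa2 are shown because the first and second genes had the largest differences between populations, S100a11 varied with both of them over CD4+ samples without a difference between populations that passed the test, and Anxa2 encodes the annexin that pairs with S100a10. Capitals mark matches, on either strand, to 4 motifs, which share no bases with each other in these windows. They are the AP-1 motif with the letters TGANTCA, the TATA box with the letters TATAAA, the E-box with the letters CACGTG and the GC box with the letters GGGCGG.
S100a4, chr3:90603520-90603819, plus strand: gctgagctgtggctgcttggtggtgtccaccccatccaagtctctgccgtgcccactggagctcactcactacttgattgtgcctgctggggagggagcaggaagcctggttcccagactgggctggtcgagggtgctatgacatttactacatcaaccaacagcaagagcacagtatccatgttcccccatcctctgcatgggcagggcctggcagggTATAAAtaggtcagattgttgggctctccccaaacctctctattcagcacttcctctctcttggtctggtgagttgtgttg
S100a6, chr3:90612644-90612943, plus strand: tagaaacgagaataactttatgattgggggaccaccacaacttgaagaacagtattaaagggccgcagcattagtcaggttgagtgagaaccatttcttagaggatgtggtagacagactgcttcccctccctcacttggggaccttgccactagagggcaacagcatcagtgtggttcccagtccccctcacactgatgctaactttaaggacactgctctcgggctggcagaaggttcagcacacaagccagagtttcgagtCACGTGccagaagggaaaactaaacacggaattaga
S100a11, chr3:93520246-93520545, plus strand: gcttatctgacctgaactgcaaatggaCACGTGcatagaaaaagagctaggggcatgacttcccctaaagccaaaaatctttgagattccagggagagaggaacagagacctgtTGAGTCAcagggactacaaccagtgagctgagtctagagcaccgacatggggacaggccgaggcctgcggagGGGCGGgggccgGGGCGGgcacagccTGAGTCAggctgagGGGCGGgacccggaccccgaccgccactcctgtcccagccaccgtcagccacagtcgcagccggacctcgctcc
Anxa2, chr9:69453433-69453732, plus strand: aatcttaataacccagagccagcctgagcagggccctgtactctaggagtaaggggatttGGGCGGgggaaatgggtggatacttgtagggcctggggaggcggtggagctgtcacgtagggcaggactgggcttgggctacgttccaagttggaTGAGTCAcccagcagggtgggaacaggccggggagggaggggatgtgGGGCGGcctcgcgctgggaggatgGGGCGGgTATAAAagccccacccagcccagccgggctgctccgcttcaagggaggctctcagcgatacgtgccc

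TGANTCA was found in 2 of the 8 members' windows, at 2 positions in S100a11 and 1 in Anxa2, against 7.81% of all 32851 promoters. TATAAA was found in 3 of 8 (S100a4, Anxa2 and Vim; 13.6% of all promoters) and CACGTG in 2 of 8 (S100a6 and S100a11; 7.15%). GGGCGG was found in 5 of 8 windows, against 35.7% of all promoters, and in neither S100a4 nor S100a6. These matches describe letters in the windows and are not binding sites measured in these cells. The promoters of S100a4 and S100a6 thus shared none of the motifs searched.

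In the comparison of CD4+ with CD8+ T cells S100a4, Lgals1, Anxa2 and Cd44 passed the test, each higher in CD4+ T cells. S100a11, Crip1, Vim and Ahnak did not pass the test. The fit also holds S100a6 and S100a10, and with S100a6 it has 5 of the 10 members under the threshold. Counts of members for this comparison, here and below, include S100a6 in this way, as a description. Over all genes tested in the 21 samples, 4.71% passed (374 of 7938 with an adjusted p under 0.05 by limma with Benjamini-Hochberg adjustment over all genes, environment as covariate), and 2.48% passed as higher in CD4+ cells. The median log2 difference of the 10 members was 0.65 (0.28 without S100a6), against -0.01 over all genes tested. S100a6 and S100a10 are given here as a description, without a p, because their CD4+ values served to choose the members. S100a4 and Anxa2 had means under 2 in CD8+ cells and entered the test through the CD4+ samples, so the count of 5 and the median are no support for the set. Without the limit on the mean the same number, 5, passed, with limma adjusted p = 2.59e-07 for S100a4 and 1.74e-05 for Anxa2. None of the 10 had fully separate ranges in the populations over all 21 samples, as 0.34% of genes had with the higher range in CD4+ cells.

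**Figure D1:**
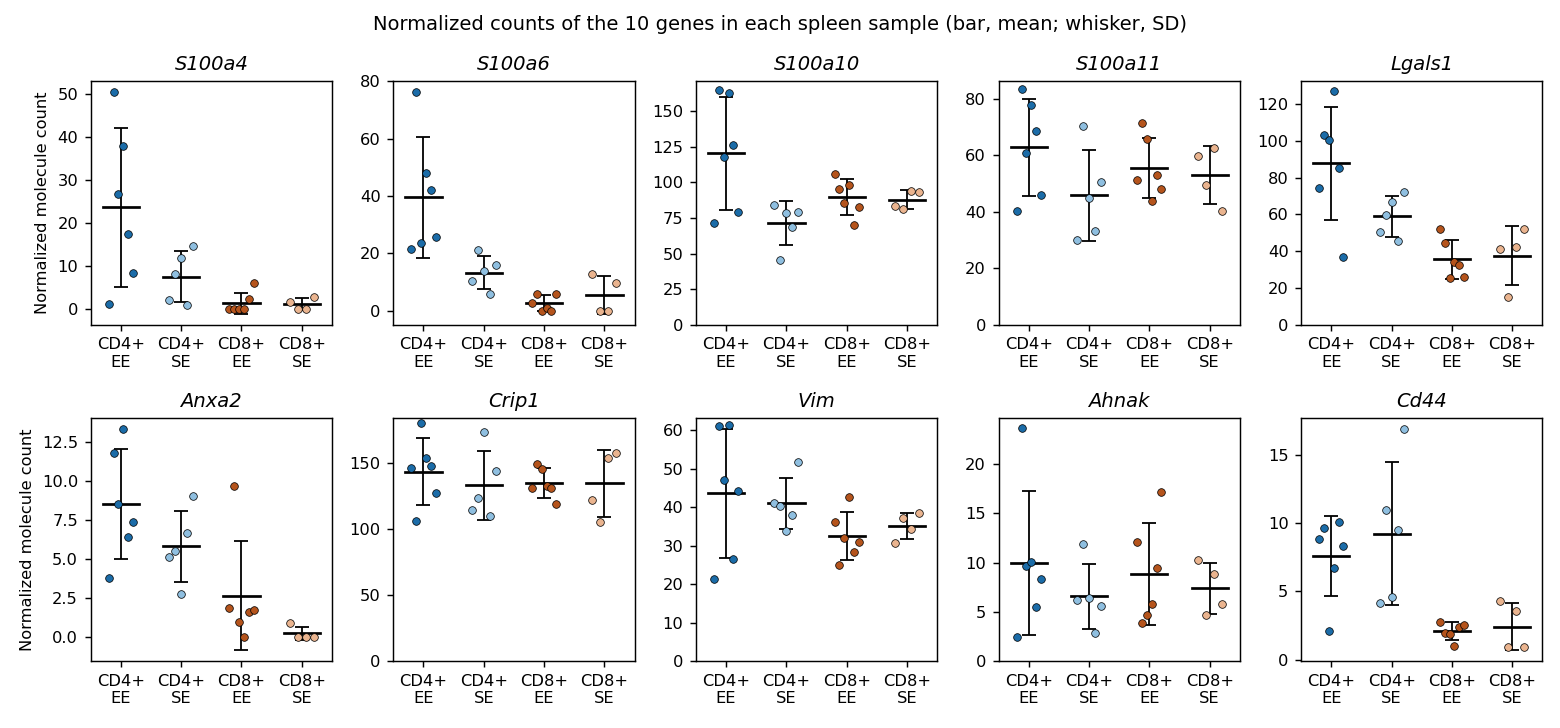
Normalized molecule counts of the 10 genes in each of the 21 samples, by population and environment (points, samples; bar, mean; whisker, SD; n = 6, 5, 6 and 4 from left to right in each panel). S100a4, S100a6, Anxa2 and Cd44 stay near the floor in most CD8+ samples, and S100a10, S100a11 and Crip1 have similar levels in both populations.

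S100a4 encodes a calcium sensor that binds non-muscle myosin and is known for its part in cell motility. In CD8+ EE samples its normalized counts had a lowest value of 0, a median of 0 and a highest value of 6.01, and in the 4 CD8+ SE samples they were 1.71, 0, 0 and 2.88. In CD4+ EE samples they ran from 1.26 over a median of 22.0 to 50.4, and in the 5 CD4+ SE samples they were 2.06, 8.2, 11.9, 0.95 and 14.6. S100a4 was detected in 11 of 11 CD4+ samples and in 4 of 10 CD8+ samples, and 3 CD4+ samples lay within the CD8+ range. The log2 difference was 2.68 (SE 0.43, 95% interval 1.82 to 3.53, limma adjusted p = 4.03e-06), and the CD4+ sample was the higher in 9 of 9 mice with both populations. Most of its annotated span overlaps Gm42674 on the same strand (chr3:90601904-90605885), with a match of 302 bases at 100% identity. Gm42674 was not analysed here, and the count of S100a4 is uncertain to that extent.

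S100a6, which encodes calcyclin, a calcium sensor that binds annexins, showed the largest difference of the 10 genes. CD8+ EE samples had normalized counts with a lowest value of 0, a median of 1.88 and a highest value of 6.01, and the CD8+ SE samples had 12.8, 0, 0 and 9.61. CD4+ EE samples ranged from 21.4 to 76.2 with a median of 33.9, and the CD4+ SE samples had 10.3, 21.0, 13.7, 5.70 and 15.8. The ranges of the populations did not meet within EE (0.889% of genes showed this with CD4+ higher), which is a description, since the CD4+ EE values of S100a6 were among those that served to choose the members, and they overlapped within SE. The log2 difference over all samples was 2.99 (SE 0.37, interval 2.26 to 3.73). In 8 of 9 mice the CD4+ sample was the higher.

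S100a10 and S100a11, the second pair of S100 genes on the chromosome, had small log2 differences between populations, that of S100a10 being a description. S100a10 is the partner of annexin A2 in a membrane complex and, unlike other S100 proteins, does not need calcium to bind it. Its normalized count was 98.1 ± 39.3 (SD, n = 11) in CD4+ and 88.9 ± 10.3 (SD, n = 10) in CD8+ samples, and the log2 difference was 0.07 (interval -0.17 to 0.31). The 10 CD8+ samples, from 70.4 to 106, sat inside the CD4+ range, from 45.8 to 165. S100a11, which encodes a partner of annexin A1, had 55.1 ± 18.2 (SD, n = 11) in CD4+ and 54.6 ± 10.1 (SD, n = 10) in CD8+ samples, and the log2 difference of -0.02 (interval -0.29 to 0.25, limma adjusted p = 0.965) did not pass. S100a11 has near-identical processed pseudogenes, 2 of them in the table with a summed mean of 9.05 normalized counts against 54.9 for the gene, so its reads may be divided and its level is uncertain. Of these 2 genes the CD4+ sample was the higher in 5 of 9 mice each.

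Anxa2 encodes annexin A2, which links membranes to actin and binds S100a10. In CD4+ EE samples its normalized counts ranged from 3.78 over a median of 7.96 to 13.4, and in the CD4+ SE samples they were 5.15, 5.49, 2.74, 6.65 and 9.01. In CD8+ EE samples they were 0 at the lowest, 1.65 at the median and 9.66 at the highest, and the CD8+ SE samples had 0.857, 0, 0 and 0, which is 1 molecule in all. Most CD8+ samples were thus at or near 0, and 1 CD8+ EE sample stood at the level of the CD4+ samples. Within SE the ranges were separate, as they were for 1.77% of genes with CD4+ higher. The log2 difference was 2.04 (SE 0.35, interval 1.34 to 2.73, limma adjusted p = 1.55e-05), with CD4+ higher in 9 of 9 mice.

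Lgals1 encodes galectin-1, a secreted lectin that binds glycans on T cells. Its normalized counts in CD4+ EE samples had a lowest value of 36.9, a median of 92.8 and a highest value of 127, and the CD4+ SE samples had 50.4, 59.5, 66.7, 45.6 and 72.1. In CD8+ EE samples they ranged from 25.4 over a median of 33.2 to 52.1, and the CD8+ SE samples had 41.1, 14.9, 42.4 and 51.9. Unlike S100a4 and Anxa2, Lgals1 was well detected in CD8+ cells, at a lower level. The log2 difference was 1.02 (SE 0.16, interval 0.70 to 1.34, limma adjusted p = 2.34e-06), and CD4+ was higher in 9 of 9 mice.

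Cd44 had few molecules, at most 15 in a CD4+ sample. The CD4+ EE samples had normalized counts between 2.14 and 10.1 with a median of 8.56, and the CD4+ SE samples had 4.12, 11.0, 4.57, 9.50 and 16.9. CD8+ EE samples lay between 0.971 and 2.79 with a median of 2.15, and the CD8+ SE samples had 4.28, 0.931, 3.53 and 0.961. Each CD8+ sample thus held at most 5 molecules, and all but 2 CD4+ samples lay above the CD8+ range. The log2 difference was 1.47 (SE 0.31, interval 0.85 to 2.10, limma adjusted p = 0.000698), with CD4+ higher in 8 of 9 mice. Stretches of the Cd44 transcript of at least 50 bases match 3 other genes in the table at 90% identity or more, so its count is uncertain to that extent.

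The 3 remaining genes encode structural proteins. Crip1, a small LIM-domain protein, had 139 ± 24.9 (SD, n = 11) normalized counts in CD4+ and 135 ± 16.7 (SD, n = 10) in CD8+ samples, with a log2 difference of 0.03 (interval -0.14 to 0.21, limma adjusted p = 0.913). Vim encodes vimentin, the intermediate filament protein of lymphocytes, and had 42.4 ± 12.7 (SD, n = 11) and 33.6 ± 5.20 (SD, n = 10), with a log2 difference of 0.28 (interval -0.01 to 0.56, limma adjusted p = 0.359). Ahnak encodes a giant scaffold protein tied to calcium entry in T cells. It had 8.41 ± 5.81 (SD, n = 11) and 8.27 ± 4.18 (SD, n = 10), with a log2 difference of -0.05 (interval -0.61 to 0.51, limma adjusted p = 0.964). The intervals of Crip1 and Ahnak leave room for differences of 0.21 and 0.61 on the log2 scale, respectively, so similar values do not show equal expression.

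**Figure D2:**
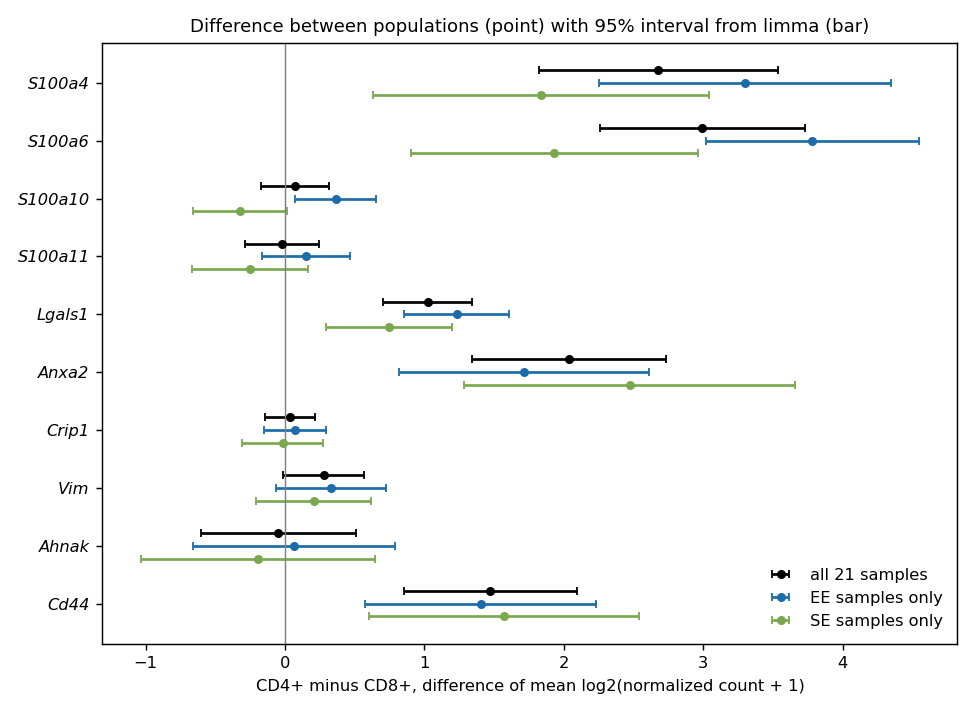
Difference between CD4+ and CD8+ T cells for the 10 genes, as mean log2(normalized count + 1) in CD4+ minus CD8+ samples (points) with 95% intervals from limma (bars), over all 21 samples, the EE samples and the SE samples. The intervals of S100a4, S100a6, Lgals1, Anxa2 and Cd44 lie above 0 in each of the fits, and those of S100a11, Crip1, Vim and Ahnak reach across 0.

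The same comparison was made within each environment. For S100a6 and S100a10 it is a description, because their CD4+ values in each environment were among those that served to choose the members, so nothing is read from the counts against their background. Within EE (6 samples of each population) the same 5 members passed, S100a6 counted among them, beside 2.88% of all genes, and 1.47% that were higher in CD4+ cells. Within SE (5 CD4+ and 4 CD8+ samples) 2 members were under the threshold, S100a6 (log2 difference 1.93), as a description, and Anxa2 (2.47, limma adjusted p = 0.0106). This stood beside 1.32% of all genes, and 0.603% that were higher in CD4+ cells. Anxa2 had a mean of 0.214 in the CD8+ SE samples and entered this test through the CD4+ SE samples (mean 5.81), so its pass is no support for the set. S100a4 (1.84, limma adjusted p = 0.152), Lgals1 (0.75, limma adjusted p = 0.0896) and Cd44 (1.57, limma adjusted p = 0.103) had positive values within SE that did not pass. S100a10 had a log2 difference of 0.36 within EE and -0.33 within SE, as a description. Whether the difference between populations depends on the environment was not tested, because it contains the comparison in view when the members were chosen.

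RNA of B cells moved with the comparison of populations. The summed normalized count of 9 B-cell markers ranged from 35.0 to 299 (median 198) in CD4+ samples and from 33.0 to 102 (median 46.1) in CD8+ samples, where Ms4a1 and Fcmr were at 0. Its part in the members' differences was not tested over the samples. The CD4+ SE sample from replicate 1, with a B-cell sum of 35.0, was within the CD8+ range of B-cell RNA and held 2.06 (S100a4), 10.3 (S100a6), 5.15 (Anxa2), 50.4 (Lgals1) and 4.12 (Cd44) normalized counts, each above the median of the CD8+ samples (0, 1.88, 0.898, 37.5 and 2.15) and below their highest sample. The 6 regulatory T-cell markers summed to between 18.4 and 70.8 in CD4+ and between 18.4 and 40.8 in CD8+ samples, with Il2ra at 0 in CD8+ samples, and the 7 myeloid markers in the table to between 14.3 and 64.1 and between 14.1 and 48.1, with Fcer1g at 0 in CD8+ samples. Sums of the natural killer cell markers (2 of 5 in the table) and of the platelet markers (2 of 4) stayed at or under 4.85 and 4.3 in every sample. Globin and Alas2 RNA summed to 581 and 1033 in the CD8+ samples of EE replicate 6 and SE replicate 3 and to at most 26.7 in the others, and without these 2 samples the same number of members, 5, passed.

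Most relatives of the members did not pass the test between populations. The other S100 genes (0 of 2 tested passed), the other annexins (0 of 4), the other galectins (0 of 3) and the other CRIP and LIM-only genes (0 of 2) had no member that passed. Among genes of filaments and membrane linkers 2 of 11 tested were higher in CD4+ cells, Capg, an actin-capping protein (log2 difference 2.48, limma adjusted p = 1.25e-08), and Flna, filamin A (0.53, limma adjusted p = 0.0112), and 1 was lower, Tagln2, transgelin-2 (-0.60, limma adjusted p = 3.35e-06). Of 16 tested genes known from antigen-experienced T cells, 2 were higher in CD4+ cells, Itgb1, integrin beta-1 (1.66, limma adjusted p = 3.23e-07), and Maf, a transcription factor of helper T cells (3.00, limma adjusted p = 8.72e-10). A further 4 were lower, the cytotoxic granule gene Nkg7 (-3.54, limma adjusted p = 1.76e-21), the protease inhibitor gene Cst7 (-2.11, limma adjusted p = 1.12e-07), the chemokine receptor gene Cxcr6 (-2.20, limma adjusted p = 5.94e-08) and the transcription factor gene Eomes (-1.38, limma adjusted p = 0.0141). Genes of this list therefore lay on both sides. Among 11 naive T-cell genes, 1 was higher and 2 were lower in CD4+ cells. Maf had means of 0.30 and 0.22 in the CD8+ EE and SE samples and entered the test through the CD4+ samples. Capg had 2.36 and 1.44 there, and Eomes and Cxcr6 had means of 0.878 and 1.96 in the CD4+ EE samples. The lists were chosen with earlier results of these data known, so their counts are no support for the set.

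In CD8+ T cells no member passed the test between EE and SE. With a mean normalized count above 2 required, 8 of the 10 genes were tested, S100a4 and Anxa2 being left out by this limit, and 0 passed, as did 0 of all 7840 genes (0.0%) by limma. There were 413 genes with an unadjusted p under 0.05, and edgeR and DESeq2 also called 0. The members' limma adjusted p-values ranged from 0.989 to 0.999, and their median log2 difference, EE minus SE, was 0.015, against -0.008 over all genes. Of the 8, 5 had a positive difference, against 49.0% of all genes. The largest estimate among these 8 was that of S100a6, at -0.39 (SE 0.66, interval -1.72 to 0.95), with 2.60 ± 2.76 (SD, n = 6) normalized counts in EE and 5.61 ± 6.62 (SD, n = 4) in SE. It was not a stable estimate, at -1.27 without EE replicate 6 and SE replicate 3, whose globin and Alas2 RNA summed to 581 and 1033, and at -1.09 with edgeR and -1.11 with DESeq2, and none of these passed. Crip1 (0.02, interval -0.21 to 0.25) and S100a10 (0.02, interval -0.24 to 0.28) had the narrowest intervals. S100a11 (0.06, interval -0.27 to 0.39), Vim (-0.13, interval -0.51 to 0.26) and Lgals1 (0.01, interval -0.45 to 0.47) had wider ones, and Ahnak (0.13, interval -0.62 to 0.88) and Cd44 (-0.03, interval -1.10 to 1.04), at few molecules, could hide larger differences. Without the limit on the mean all 10 were fitted and 0 passed. Anxa2 then had the largest value of the 10, a log2 difference of 1.23 (interval 0.21 to 2.25, limma adjusted p = 0.943 and unadjusted p = 0.0187), from 17 molecules in 5 of 6 EE samples and 1 molecule in 1 of 4 SE samples. Without EE replicate 2, which held 10 of the 17 molecules, it was 0.83 (interval -0.09 to 1.75, limma adjusted p = 0.956), and with so few molecules the value depends on the added 1. S100a4 had -0.09 (interval -1.06 to 0.88, limma adjusted p = 0.983). None of the 8 had separate ranges, against 1.06% of all genes. No gene of the 7 lists of relatives and T-cell states passed in this comparison with the limit on the mean. Without the limit Ccl5, a chemokine gene of the antigen-experienced list, passed (log2 difference 1.96, limma adjusted p = 3.79e-06).

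In CD4+ T cells, 8 of the 10 members had higher means of log2 values in EE than in SE, where 50.1% of all genes did, and 7 of them by more than 0.3, as 22.0% of genes did. In CD8+ T cells 0 of the 8 members tested were above 0.3, against 19.8% of genes. Without the limit on the mean it was 1 of 10, Anxa2, whose value of 1.23 in CD8+ cells stands beside 0.47 in CD4+ cells, against 21.1% of genes, and without EE replicate 2 it was 2 of 10 (21.5% of genes), Ahnak then having 0.30. The CD4+ values helped to choose the members and are a description. Their median log2 difference was 0.468, against 0.001 over all genes. S100a6 had the largest one, 1.46 (SE 0.28), from 39.5 ± 20.9 (SD, n = 6) normalized counts in EE and 13.3 ± 5.77 (SD, n = 5) in SE. It was the only member with separate ranges (0.214% of genes had a range in EE above that in SE), narrowly so, since its lowest EE sample had 21.4 normalized counts (17 molecules) and its highest SE sample 21.0 (23 molecules). S100a4 followed with 1.37 (SE 0.48). Its 6 EE samples included both the highest value of all, 50.4, and a sample with 1 molecule.

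S100a10 had 71.8, 79.3, 118, 126, 163 and 165 normalized counts in the CD4+ EE samples, against 45.8, 68.4, 78.6, 78.8 and 84.4 in the SE samples. Its log2 difference was 0.71 (SE 0.17), with 4 EE samples above the SE range and 2 inside it. Lgals1 (0.49, SE 0.19), S100a11 (0.47, SE 0.19), Anxa2 (0.47, SE 0.38) and Ahnak (0.38, SE 0.40) had smaller values with overlapping ranges. With 1 sample left out, Anxa2 went down to 0.27 (without SE replicate 4) and Ahnak to 0.10 (without EE replicate 2). Crip1 (0.11, SE 0.14), Vim (-0.00, SE 0.21) and Cd44 (-0.20, SE 0.38) were nearer to 0. Of the antigen-experienced list, 14 of 17 genes with a sufficient mean were higher in EE, with a median log2 difference of 0.359. Of the naive list 2 of 11 were higher, with a median of -0.228, where 50.1% of all genes were higher. In CD8+ cells it was 9 of 15 and 6 of 11, with medians of 0.062 and 0.008, and 49.0% of all genes. The lists were chosen with earlier results of these data known, so these counts are a description. B-cell marker sums ran from 149 to 246 in CD4+ EE samples and from 35.0 to 299 in CD4+ SE samples, and the regulatory T-cell sums from 18.4 to 70.8 and from 20.9 to 64.9, so neither separated the environments.

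**Figure D3:**
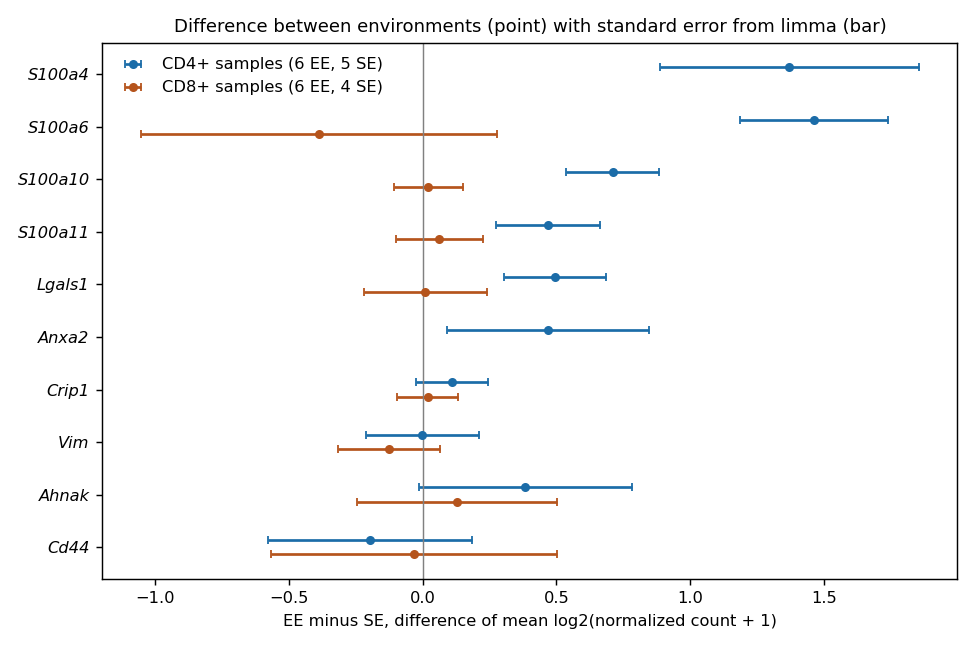
Difference between EE and SE for the 10 genes within CD4+ (6 EE, 5 SE) and CD8+ (6 EE, 4 SE) samples, as mean log2(normalized count + 1) in EE minus SE (points) with standard errors from limma (bars). S100a4 and Anxa2, with means of at most 2 in CD8+ samples, are not drawn there. The CD4+ points of S100a4 and S100a6 lie beyond 1, whereas the CD8+ points drawn lie between -0.39 and 0.13.

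The members varied between samples of the same group by more than counting alone gives. The variance of S100a4 within groups was 11.4 times that expected from counting molecules, that of S100a6 8.64 times, of Lgals1 6.77 times and of S100a10 6.24 times, against a median of 1.58 over all 7938 genes. S100a11 (3.76), Crip1 (3.71), Ahnak (3.31) and Vim (2.86) followed. Anxa2 (1.81) and Cd44 (1.77) were close to the median of all genes, at mean counts of 4.62 and 5.43.

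This variation was shared among most members in CD4+ T cells. After the group means were removed, the median Pearson r of the 45 pairs of members was 0.39 over the 11 CD4+ samples, with 35 pairs above 0 and 18 above 0.5, where 7.72% of all pairs of genes with a mean above 10 exceeded 0.5. Leaving out 1 CD4+ sample at a time gave medians from 0.314 to 0.546. Over the 10 CD8+ samples the median was 0.048, with 27 pairs above 0 and 7 above 0.5 (9.03% of all pairs), and leaving out 1 sample at a time gave medians from -0.020 (without SE replicate 2) to 0.197. S100a4 was at 0 in 6 of these samples, and S100a6 and Anxa2 in 4 each. All samples together gave a median of 0.248, with 39 of 45 pairs above 0 and 7 above 0.5 (2.29% of all pairs). The points of each r share library and depth, the values come from few molecules for several genes, and the members were chosen with these samples known, so no test is given.

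**Figure D4:**
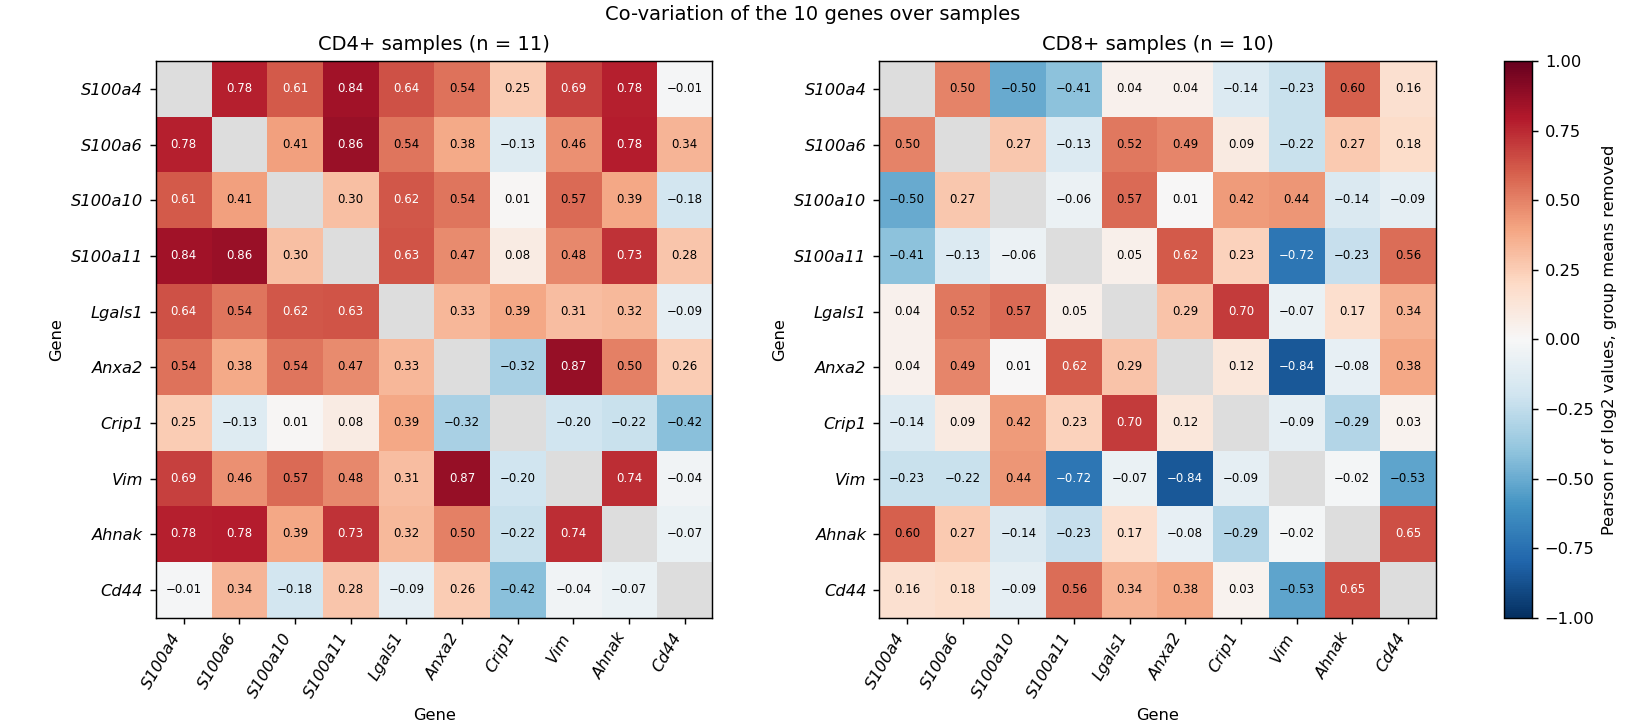
Pearson r between each pair of the 10 genes over the 11 CD4+ samples (left) and the 10 CD8+ samples (right), from log2(normalized count + 1) with the group means removed (red, positive; blue, negative). In CD4+ samples the rows of S100a4, S100a6, S100a11, Vim and Ahnak are mostly positive and those of Crip1 and Cd44 are not, and in CD8+ samples no such block is seen.

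The strongest pair in CD4+ samples was Anxa2 with Vim (r = 0.87), followed by S100a6 with S100a11 (0.861) and S100a4 with S100a11 (0.836). In CD8+ samples the first pair had r = -0.845, the lowest of the 45 pairs there, and the second -0.133. S100a4 and S100a6, from the first pair on the chromosome, had r = 0.778, and S100a11 and S100a10, from the second, had 0.30. Against the mean of the other members, S100a4 had r = 0.886, S100a11 0.86, S100a6 0.824, Ahnak 0.735, Vim 0.703, Anxa2 0.623, Lgals1 0.59 and S100a10 0.558. Cd44 (0.04) and Crip1 (-0.05) stood apart from the rest. Cd44, the gene for the surface marker that gives antigen-experienced T cells their usual definition, thus did not vary with the other members in CD4+ samples, at few molecules per sample, and had r = 0.438 with them in CD8+ samples. S100a6 was nearest, over all 21 samples, to S100a4 (r = 0.52), Lgals1 (0.50) and Anxa2 (0.46).

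Single mice stood high or low in several members at once. In CD4+ EE, replicate 2 had the highest value of 5 members (S100a4, S100a6, S100a10, S100a11 and Ahnak) but the lowest of Crip1. Replicate 4 had the highest value of 3 (Lgals1, Anxa2 and Vim). Replicate 1 had the lowest value of 7 of the 10 members and also the fewest molecules of any sample, 145546. In CD4+ SE, replicate 6 had the highest value of 5 members and replicate 5 the lowest of 5. The joint level, the mean of the 10 genes on the log2 scale after centring each gene over 21 samples, ranged from -0.05 to 1.38 in CD4+ EE (median 0.73) and from -0.22 to 0.63 in CD4+ SE. It ranged from -0.86 to -0.13 in CD8+ EE and from -1.16 to -0.13 in CD8+ SE. The CD4+ SE range thus met that of the CD8+ samples and the CD4+ EE range narrowly did not. This is a description, since the joint level includes S100a6 and S100a10, whose CD4+ values served to choose the members. Myeloid marker sums were 25.7 in CD4+ EE replicate 2, 59.0 in replicate 4 and 16.4 in replicate 1, regulatory T-cell sums were 70.8, 27.8 and 44.1, and B-cell sums were 185, 149 and 246. In CD4+ SE the B-cell sum was 255 in replicate 6 and 111 in replicate 5, and the myeloid sum 34.9 and 14.3. The SE samples with the lowest B-cell sums, replicates 1 (35.0) and 5, also had the lowest joint levels of their group, -0.08 and -0.22. The part of these cells in the shared variation was not tested.

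**Figure D5:**
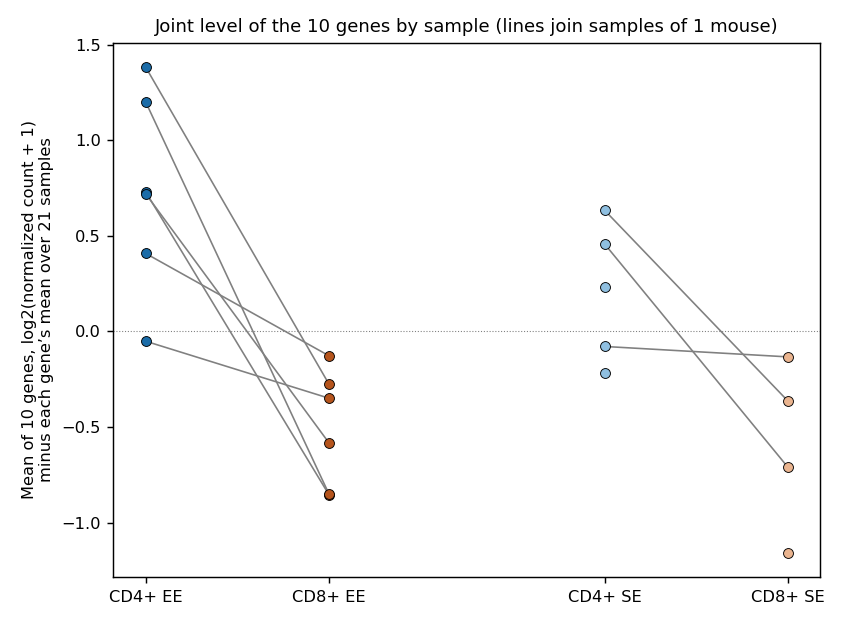
Joint level of the 10 genes in each sample, as the mean of log2(normalized count + 1) after subtracting the mean of each gene over 21 samples, by population and environment (points, samples; grey lines, CD4+ and CD8+ samples of the same mouse). Each of the 9 lines falls from CD4+ to CD8+, least steeply in SE replicate 1 (-0.08 to -0.13). The level includes S100a6 and S100a10, whose CD4+ values served to choose the members.

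A high joint level in the CD4+ cells of a mouse did not go with a high level in its CD8+ cells. Over the 9 mice with both populations the deviations from the group means had a Pearson r of -0.317 and a Spearman rho of -0.283, given as a description, and 4 of 9 mice deviated in the same direction in both. Outside the members, the genes most like them over 21 samples, by Pearson r with the mean of the members after group means were removed, were Gnb2 (0.751), the predicted gene Gm6204 (0.747), Ppp1r12c (0.666), Serbp1 (0.659) and Crebrf (0.654). Of the 2721 genes with a mean above 10 outside the members, 2.1% had r above 0.5. Gnb2 encodes a G protein beta subunit, Ppp1r12c a regulatory subunit of myosin phosphatase and Serbp1 an mRNA-binding protein. In CD4+ samples alone Gnb2 reached 0.851 and in CD8+ samples 0.534.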

How the data were processed

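Normalized gene counts (signal) were taken from the table the authors deposited for 21 spleen T-cell samples and 12994 genes. Per the labels and the study's methods, cells were sorted by CD45, CD11b, CD3, CD4 and CD8, reads were trimmed with cutadapt, aligned to mm10 with STAR 2.4.0a and counted as UMIs per gene, and the authors filtered low genes and divided counts by DESeq2 size factors. The methods describe reads of another tissue, and the filter limit and strand setting are not given in the sources used here. Dividing each column by its smallest positive value gave whole molecules for 100% of values (tolerance 0.001).

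The 10 members and all gene lists were chosen with earlier results of these data known. Genes with a mean above 2 were compared by limma 3.58.1 (trend, not robust; R 4.3.3) on log2(value + 1), a scale that understates changes of low genes, with Benjamini-Hochberg adjustment over all genes and a threshold of 0.05. Named genes were the members, list genes past the threshold (at most 6 per list, none of the naive list), the 5 genes most like the members, and the 3 members nearest to S100a6. edgeR 4.0.16 and DESeq2 1.42.0 on recovered molecules were alternatives, and fits were tested on simulated data. Python 3.11.15 was used otherwise. All 46 pairs of samples of the same group differed beyond sampling noise (chi-square test, largest p = 6e-119). Same-numbered CD4+ and CD8+ samples of an environment came from the same mouse, per the labels, and their deviations correlated with r from -0.015 to 0.035. An EE and an SE mouse with the same number are not the same animal.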

Additional observations from a re-analysis of the deposited data

Results flagged for a closer look

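Among 44 sets of values (10 genes and the joint level in 4 groups), 3 held a sample far from the others by Dixon's test, where chance gives about 2.2. Anxa2 had 9.66 normalized counts in CD8+ EE replicate 2, against 0 to 1.86 in the other 5 samples. Its value of 0.856 in CD8+ SE replicate 1 was 1 molecule, the others being at 0. Ahnak had 23.6 normalized counts in CD4+ EE replicate 2, against 2.52 to 10.0 in the others, and this sample also had the highest S100a4, S100a6, S100a10 and S100a11 of its group. Without it, the Ahnak log2 difference between environments in CD4+ cells was 0.10 instead of 0.38.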

How the results depend on the processing

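Between CD4+ and CD8+ cells, 374 genes and 5 members passed, with S100a6 counted among the members as a description. With a mean above 10 there were 235 genes and 2 of the 6 members tested, within EE 227 genes and within SE 105 genes and 2 members, all with fewer genes or samples by construction. Leaving out 1 sample gave 321 to 393 genes and 5 members each time. The replicate block (mouse) gave 381 genes and 5 members, so the pairing changed no member's call. edgeR called 389 genes and DESeq2 352.

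Between environments in CD8+ cells, 3 genes passed without a filter (Ccl5, Ly6c2 and Trbv12.2), 2 with the animal number as replicate block (Ly6c2 and Trbv12.2), which shares only a number between different mice (deviations correlated with r from -0.006 to 0.03 over 9 pairs), and 0 to 3 with 1 sample left out (3 without SE replicate 6), and no member passed in any of these fits. The cause was not tested.

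The members' median log2 difference between environments was 0.352 to 0.618 in CD4+ cells (0.372 with the replicate block) and -0.095 (without SE replicate 2) to 0.0995 in CD8+ cells with 1 sample left out. The median pairwise r of 0.248 was 0.39 in CD4+ samples only, 0.0477 in CD8+ samples only and 0.185 to 0.317 with 1 sample left out.

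No estimate that passed the test changed sign. Between populations, S100a11 became 0.0132 (edgeR) and 0.0188 (DESeq2), and Ahnak 0.0217 (edgeR), 0.0275 (DESeq2) and 0.12 (without the 2 samples high in globin genes, an alternative chosen after seeing the data). With 1 sample left out, the ranges were -0.0034 to 0.148 for S100a10, -0.081 to 0.042 for S100a11, -0.0058 to 0.078 for Crip1 and -0.209 to 0.10 for Ahnak. Between environments in CD8+ cells, S100a6 became 0.0745 and Cd44 0.0841 with the replicate block, S100a6 -1.27 without the 2 samples high in globin genes, -1.09 with edgeR and -1.11 with DESeq2 (-0.39 otherwise), Cd44 0.106 without the 2 samples high in globin genes, and Lgals1 -0.0027 with equal totals, -0.0736 with edgeR and -0.075 with DESeq2. With 1 sample left out, the ranges there were -0.987 to 0.277 for S100a6, -0.028 to 0.089 for S100a10, -0.059 to 0.149 for S100a11, -0.372 to 0.207 for Lgals1, -0.093 to 0.10 for Crip1, -0.0796 to 0.301 for Ahnak and -0.256 to 0.155 for Cd44.

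Between environments in CD4+ cells, with 1 sample left out, the ranges were 0.94 to 1.95 for S100a4, 1.22 to 1.65 for S100a6, 0.27 to 0.65 for Anxa2, 0.041 to 0.211 for Crip1, 0.101 to 0.662 for Ahnak, -0.117 to 0.178 for Vim and -0.406 to 0.073 for Cd44 (above 0 without EE replicate 3 or SE replicate 6), so Vim and Cd44 had no stable sign.

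In CD8+ cells S100a4 and Anxa2 mostly had under 3 molecules a sample, so their differences between environments rest on few counts. The fit without EE replicate 2 was added after seeing the data.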
